A study of Mus musculus with 9 samples.

Results

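Among 9 RNA sequencing libraries of mouse granulosa cells, 4 held the oviduct transcript Ovgp1 at 40 FPKM or more and 5 held it under 40. FPKM is a read count divided by the length of the gene and by the depth of the library. The 4 were CTX 1, CTX 2, CTX 3 and Control 1, called the high libraries here, and the 5 were the 3 CTX_HCQ libraries, Control 2 and Control 3, called the low libraries. Ovgp1 itself chose the libraries and is given as a description only. Its values were 339 FPKM in CTX 3, 55.5 in Control 1, 91.0 in CTX 1 and 44.4 in CTX 2, against 11.3 in CTX_HCQ 3, 4.90 in CTX_HCQ 2, 4.69 in CTX_HCQ 1, 4.01 in Control 2 and 1.01 in Control 3. CTX 2 therefore lay just inside the limit, and CTX_HCQ 3 was the nearest library outside it.

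The series compared wild-type female C57BL/6 mice in 3 groups of 3 libraries. CTX mice received cyclophosphamide, an alkylating drug that damages follicles, at 120 mg per kg. CTX_HCQ mice received the same dose together with oral hydroxychloroquine at 40 mg per kg per day, started 7 days before the injection and kept up for 4 weeks after it. Control mice are called vehicle controls in the design text and untreated in the labels. The labels name the cells as ovarian granulosa cells taken without culture, and give no age. They also do not say how many mice went into a library, and p-values here reflect library-to-library spread, part of which may be technical.

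Ovgp1 encodes the oviduct-specific glycoprotein, which secretory cells of the oviduct epithelium release into the fluid around the egg, and its production there depends on oestrogen. The oviduct lining also holds ciliated cells, whose motile cilia move the egg. The transcription factor FOXJ1 switches on the motile cilium programme, together with RFX factors. A motile cilium bends by dynein motors on its outer microtubules, and radial spokes and a central pair set the beat. Granulosa cells carry a single primary cilium, which has no such motors.

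Promoters of 3 motile cilium genes are shown because these genes were among the most different between the libraries, and they show the motif described next both present and absent. They are the members of the motile cilia lists with the largest differences among those with a sequence in RefSeq's table, each a window of 300 bases around the gene start. The coordinates belong to that table's build, GRCm38.p6, not to the build of the deposited values, and all 3 are on the plus strand. They lie at chr9:44240427-44240726 for Ccdc153, chr8:116504765-116505064 for Dynlrb2 and chr15:9435778-9436077 for Capsl. Capitals mark the core letters of the RFX motif, GTTGCC, or its reverse, GGCAAC.
Ccdc153: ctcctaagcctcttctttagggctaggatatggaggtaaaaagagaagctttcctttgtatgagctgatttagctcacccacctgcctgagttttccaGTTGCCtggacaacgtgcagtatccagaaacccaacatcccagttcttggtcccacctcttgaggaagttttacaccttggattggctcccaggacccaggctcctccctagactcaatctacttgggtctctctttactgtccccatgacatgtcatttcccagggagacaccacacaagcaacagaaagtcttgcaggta
Dynlrb2: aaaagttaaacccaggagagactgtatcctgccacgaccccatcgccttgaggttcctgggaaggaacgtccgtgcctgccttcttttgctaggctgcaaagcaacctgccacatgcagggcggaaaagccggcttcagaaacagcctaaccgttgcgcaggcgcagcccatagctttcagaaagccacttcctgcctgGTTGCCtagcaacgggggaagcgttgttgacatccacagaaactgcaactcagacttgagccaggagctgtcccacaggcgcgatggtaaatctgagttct
Capsl: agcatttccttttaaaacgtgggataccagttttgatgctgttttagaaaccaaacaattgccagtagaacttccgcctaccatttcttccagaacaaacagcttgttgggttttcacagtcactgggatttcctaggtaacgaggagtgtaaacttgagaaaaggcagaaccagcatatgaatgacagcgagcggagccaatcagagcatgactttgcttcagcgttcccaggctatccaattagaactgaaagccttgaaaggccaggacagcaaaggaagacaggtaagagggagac
The core occurred once in Ccdc153, starting 152 bases before the gene start, and once in Dynlrb2, starting 51 bases before it, and not in the Capsl window. On both strands, 48 of the 101 motile cilia genes with a promoter held it, or 47.5%, against 14.1% of 27025 promoters of the same length. The forkhead letters GTAAACA, or TGTTTAC on the other strand, share no stretch with the RFX core and were in 5 of the 101, or 4.95%, against 4.05% of all promoters. These are matches of letters and not binding sites.

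Foxj1 followed the split closely. It had 21.5 FPKM in CTX 3, 14.0 in CTX 2, 11.7 in Control 1 and 10.6 in CTX 1, from 468 to 928 reads, against 1.94 in CTX_HCQ 3, 1.56 in CTX_HCQ 1, 0.425 in Control 2, 0.262 in CTX_HCQ 2 and 0.0231 in Control 3, from 1 to 78 reads. The lowest high library was 5.47 times the highest low one, with a mean log2 difference of 3.14 on the log2(FPKM + 1) scale used throughout. That scale understates differences of genes with low FPKM. Among the high libraries Foxj1 ran over a narrower range than Ovgp1. CTX 3 held 1.78 times the mean of the other 3 high libraries for Foxj1 and 5.32 times for Ovgp1.

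Rsph1, a radial spoke protein, differed less. It had 10.5 FPKM in CTX 3, 4.34 in Control 1, 6.76 in CTX 1 and 6.60 in CTX 2, against 2.54 in CTX_HCQ 2, 2.52 in Control 3, 2.44 in Control 2, 2.42 in CTX_HCQ 1 and 1.28 in CTX_HCQ 3. The groups did not overlap, but the low libraries kept 27 to 61 reads of Rsph1, while Control 3 held 1 read of Foxj1. Foxj1 and Rsph1 thus lay higher in each of the 4 libraries than in any of the other 5. The split did not use them, but they were chosen with earlier results of these data known, so this is a description.

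**Figure D1:**
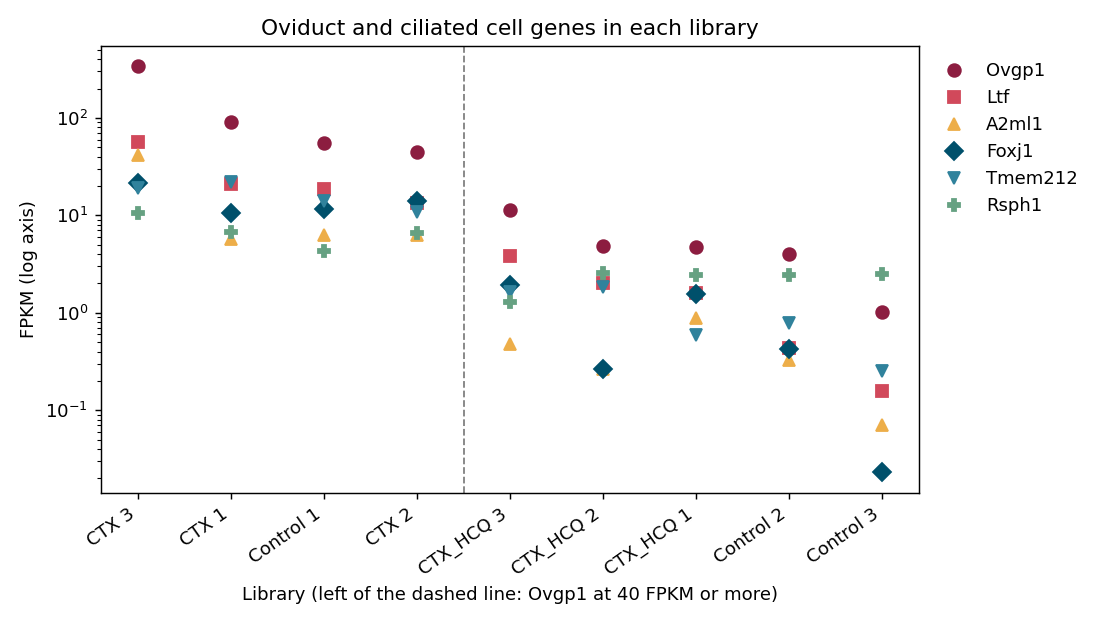
FPKM on a log axis of 6 genes in each of the 9 libraries, 1 point per gene and library, with the 4 high libraries left of the dashed line. Each gene lies higher in every library on the left than in any on the right; Ovgp1 reaches 339 FPKM in CTX 3, and Foxj1 is at 0.0231 FPKM in Control 3.

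The genes with the largest differences were described next, with Ovgp1 as the first of the 12 by rule. Ltf, which encodes the iron-binding secreted protein lactoferrin and responds to oestrogen in the reproductive tract, had 56.9 FPKM in CTX 3, 21.1 in CTX 1, 18.8 in Control 1 and 13.5 in CTX 2, against 0.158 to 3.85 in the low libraries, highest in CTX_HCQ 3. Its log2 difference was 3.43. A2ml1, a gene of the alpha-2-macroglobulin family of protease inhibitors, had 41.4 FPKM in CTX 3, while the remaining high libraries lay between 5.65 and 6.29, against 0.0704 to 0.879 in the low ones. Like Ovgp1, it was far higher in CTX 3 than elsewhere, at 6.82 times the mean of the other high libraries.

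Other genes of this set were even across the high libraries. Sec14l3, a member of a lipid-binding family, stood at 8.61 FPKM in Control 1, 7.92 in CTX 2, 7.15 in CTX 3 and 5.85 in CTX 1, against 0 to 1.10 in the low libraries. Tmem212, a membrane protein gene, was at 22.0 FPKM in CTX 1, 19.3 in CTX 3, 14.0 in Control 1 and 10.7 in CTX 2, against 0.254 to 1.84. For both genes CTX 3 was close to the other high libraries, at 0.959 and 1.24 times their mean. Ldlrad1, which encodes a protein with a low-density lipoprotein receptor domain, stood at 2.40 to 3.81 against 0 to 0.386. Slc14a1, a urea transporter, was uneven, with 12.5 FPKM in CTX 3 and 2.08 to 3.24 in the remaining high libraries, against 0.121 to 0.848.

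Foxj1 and 4 other cilium genes filled the rest of the 12. Ccdc153, a coiled-coil protein of motile cilia, had 11.6 FPKM in CTX 3, 4.57 in Control 1, 5.84 in CTX 1 and 5.20 in CTX 2, against 0.0298 to 0.590 in the low libraries. Dynlrb2, a dynein light chain, was at 9.53 in CTX 3, 6.87 in CTX 2, 4.56 in Control 1 and 3.74 in CTX 1, against 0 to 0.820. Capsl, a calcium-binding protein gene, stood at 2.42 to 8.98 against 0 to 0.542, and the cadherin-related gene Cdhr4 at 2.60 to 4.88 against 0 to 0.548. The low values rest on few reads: Dynlrb2 had at most 7 reads and Capsl at most 9 in any low library.

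Taking all genes tested, those with an FPKM of at least 1 in 3 or more libraries, 360 of 14431 (2.49%) were higher in every high library than in any low one, and 190 (1.32%) were lower. Of the 360, 121 differed by at least 1 on the log2 scale, and 36 of these 121 belonged to the motile cilia lists, which hold 0.499% of genes tested. These members passed the filter, which a gene can do through the high libraries alone, so nothing is read from the 36. Of the 190, 12 differed by at least that much downward, unnamed genes included. No test is given for these differences, because the libraries were chosen on a measured transcript. The count of 360 was 742 without CTX 3 and 1166 without CTX_HCQ 2, and 245 when the split was set at 50 FPKM, which moves CTX 2 to the low side. The count of 190 was 994 when CTX_HCQ 2 was left out, 534 when CTX 3 was, 502 when CTX_HCQ 3 was, 333 when Control 1 was and 323 when CTX 2 was.

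Motile cilia genes were taken from 4 lists, which were chosen with earlier results of these data known. Of their genes, 122 were found by symbol and 120 were above 0 in at least 1 library. Over these 120, 109 had a higher mean in the high libraries, against 46.5% of 32879 genes above 0, and 77 did not overlap, against 2.08% of those genes. None of the 120 was lower without overlap. The median log2 difference was 0.64, against -0.01 for all genes above 0. Only 72 of the 120 passed the filter on low values, and a gene at 1 FPKM in the high libraries alone passes it, so the counts are given over all 120. The number of list members at 1 FPKM or more was 86 in CTX 3, 63 in Control 1 and 70 in each of CTX 1 and CTX 2, against 35 in CTX_HCQ 3, 29 in CTX_HCQ 2, 28 in Control 3, 26 in CTX_HCQ 1 and 23 in Control 2. Over all genes, that level was reached by 14104 in CTX 3, 13635 to 13732 in the other high libraries and 13414 to 14530 in the low ones. In bulk libraries, fewer cells of a type and less RNA per cell cannot be told apart.

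**Figure D2:**
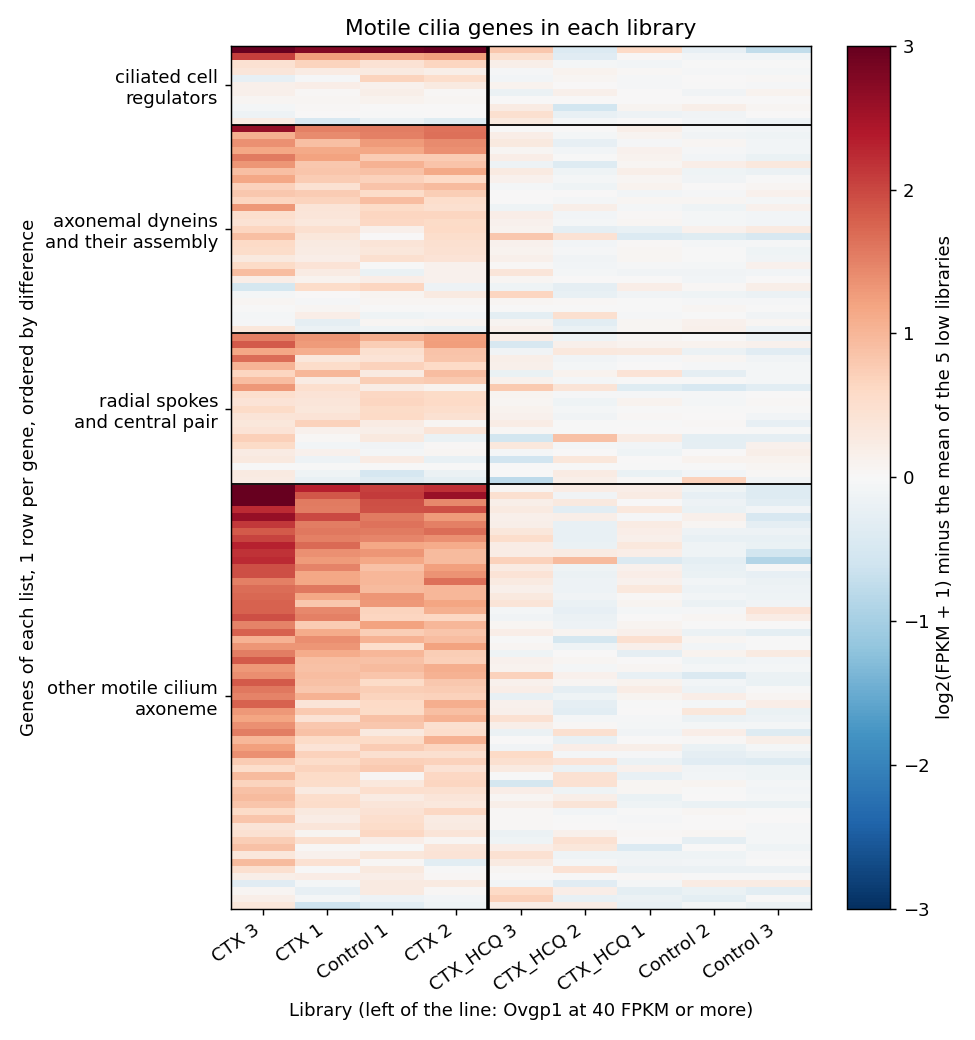
Difference of log2(FPKM + 1) from the mean of the 5 low libraries (colour) for 120 genes of the motile cilia lists (rows, grouped by list) in the 9 libraries (columns), with the 4 high libraries left of the line. Most rows are red in all 4 high libraries, Control 1 included, and near white in the 5 low ones.

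Among regulators of ciliated cells, 6 of 11 genes did not overlap, against 2.08% of all genes above 0. Besides Foxj1 these were Ccdc78, which acts in making many centrioles, at 2.03 to 4.77 FPKM against 0.0810 to 0.892, and 4 genes below the filter. Trp73, a p53 relative needed for multiciliated cells, stood at 0.606 to 0.902 against 0.120 to 0.353. Deup1, a scaffold for new centrioles, stood at 0.195 to 0.349 against 0 to 0.138, Myb at 0.171 to 0.276 against 0.0340 to 0.139, and Gmnc, which starts the multiciliated fate, at 0.0410 to 0.0718 against 0 to 0.0114, or 4 to 7 reads against 0 to 1. Mcidas, an early regulator of the same fate, was listed at 0 in all 9 libraries. Ccno overlapped, at 8.41 to 16.8 FPKM in the high and 9.54 to 10.7 in the low libraries, as did E2f5 and Cep152. The median log2 difference of this list was only 0.19. As a list median relative to the low mean, the high libraries stood at 0.07 to 0.18. CTX_HCQ 3, a low library, also stood at 0.18, and the other low ones at -0.06 to 0. The RFX genes did not follow the split: Rfx3 was at 0.933 to 1.16 FPKM in the high and 0.829 to 1.99 in the low libraries, and Rfx2 at 1.02 to 1.15 in the high libraries, against 0.422 in CTX_HCQ 2 and 1.19 or more in the other 4 low libraries, all 4 above every high library.

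Axonemal dyneins and their assembly factors gave 18 of 29 genes without overlap, against 2.08% of all genes above 0. Their median log2 difference was 0.47. Dnali1, a light intermediate chain of inner arms, had 6.59 FPKM in CTX 3, 2.73 in CTX 2, 2.51 in Control 1 and 2.48 in CTX 1, against 0.142 to 0.368. The heavy chain gene Dnah5 of outer arms was instead lowest in CTX 3 among the high libraries, with 2.47 in CTX 2, 2.14 in Control 1, 1.93 in CTX 1 and 1.28 in CTX 3, against 0.0116 to 0.254. The intermediate chain gene Dnaic1 was even, at 1.35 to 1.73 FPKM against 0 to 0.173. Zmynd10, an assembly factor, stood at 1.40 to 2.40 against 0.0806 to 0.582. Dnaaf5, another assembly factor, overlapped, at 7.48 to 9.82 in the high and 7.21 to 10.1 in the low libraries.

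Radial spoke and central pair genes gave 11 of 21 without overlap, against 2.08% of all genes above 0, and a median of 0.50. Rsph4a, a spoke head protein, stood at 1.44 to 2.25 FPKM against 0.0166 to 0.321, and Rsph9, of the same head, at 3.57 to 6.27 against 1.59 to 3.07. The central pair gene Hydin stood at 0.250 to 0.989 against 0 to 0.159. Spef1 did not follow the split, at 4.78 to 8.91 in the high and 6.10 to 8.68 in the low libraries, nor did Rsph3a, at 4.38 to 7.29 and 3.03 to 10.4. Rsph3a has a close copy, Rsph3b, so their reads may be shared.

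Other axoneme genes gave the largest share, 42 of 59 without overlap, against 2.08% of all genes above 0, with a median of 0.97. Fam183b, a gene of ciliated cells, had at least 4.15 FPKM in each high library, against 0.535 to 1.41 in the low ones, and Sntn, of the cilium tip, stood at 2.04 to 3.73 against 0 to 0.683. Cfap206, which anchors radial spokes, was at 2.53 to 4.31 against 0.0244 to 0.461. The tubulin gene Tubb4b, used in many cells, was at 111 to 142 in the high and 61.1 to 123 in the low libraries and overlapped.

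CTX 3 held the highest value of 36 of the 44 motile cilia genes that passed the filter and did not overlap, CTX 2 of 6, CTX 1 of 2 and Control 1 of 0. Over all 360 genes tested that were higher without overlap, CTX 3 held the highest value of 197. The ratio of CTX 3 to the mean of the other high libraries had a median of 1.75 over the 44, with quartiles of 1.37 and 2.15, against a median of 1.18 over the other 316, with quartiles of 0.935 and 1.63. All of these genes were selected through their values in the high libraries, so the ratios are a description. The ratio was 5.32 for Ovgp1, 3.19 for Ltf and 6.82 for A2ml1, all above both upper quartiles. The other oviduct secretory genes without overlap went both ways. Pax8 stood at 5.15, Slc1a3 at 3.21 and Pax2 at 2.73, above both upper quartiles. Lcn2 stood at 1.65 and Muc1 at 1.18, below the cilium upper quartile. CTX 3 also had 28.9% of its FPKM in mitochondrial genes, against 15.2% to 17.5% in the other high libraries and 11.7% to 15.8% in the low ones. The part of this in the ratios was not tested. Among the low libraries, CTX_HCQ 3 held the highest value of 59 of the 120 cilium genes (49.2%), against 32.1% of all genes above 0. It had 14530 genes above 1 FPKM, against 13414 to 13592 in the other low libraries, and the part of this in the count was not tested. It had the lowest depth, 13372028 recovered reads against 15963784 to 17133872 in the other 8 libraries.

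Secretory and ductal epithelium of the oviduct was described without Ovgp1, in 10 genes above 0. All 10 had higher means in the high libraries, against 46.5% of all genes above 0, and 6 did not overlap, against 2.08%. The median log2 difference was 0.54. Besides Ltf, Lcn2, which encodes the secreted protein lipocalin, stood at 1.65 to 4.04 FPKM against 0.283 to 1.64, and the mucin gene Muc1 at 1.33 to 2.01 against 0.414 to 0.641. Pax8, a transcription factor of oviduct secretory cells, was low: CTX 3 had 2.29 FPKM and the remaining high libraries 0.369 to 0.486, against 0.0400 to 0.204. In reads these were 228, and 38 to 50, against 4 to 20. Sox17, also found in endothelium, overlapped, at 1.23 to 4.52 against 0.191 to 1.26, and Emx2 was close to even, at 6.59 to 12.9 against 7.01 to 12.1.

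Genes of simple epithelia were mixed, with 7 of 16 without overlap, against 2.08% of all genes above 0, and a median of 0.40. Cldn3, a tight junction protein, had 47.3 FPKM in CTX 3, 19.5 in Control 1, 21.1 in CTX 1 and 20.3 in CTX 2, against 8.27 to 12.3. Cdh1, the epithelial cadherin, stood at 13.6 to 16.1 against 6.96 to 10.5. The keratin gene Krt8, at 33.9 to 61.3 against 34.8 to 46.9, and Epcam, at 33.3 to 45.7 against 23.3 to 38.5, overlapped. The ovarian surface epithelium is also epithelial, and 2 of the 12 genes of its list had a higher mean in the high libraries, with a median of -0.30 and 0 of 12 without overlap in either direction. Its gene Lrrn4 stood at 2.13 to 7.74 against 1.52 to 9.84.

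All 16 granulosa markers were at 1 FPKM or more in all 9 libraries. That level does not check the cell label, because other lists reached it too. In each library, 11 or 12 of the 12 ovarian surface epithelium genes did, and 11 or 12 of the 12 oocyte genes. The granulosa markers had a median log2 difference of 0.09, and none of the 16 separated. Fst, which encodes the activin-binding protein follistatin, stood at 105 to 137 FPKM in the high and 72.0 to 115 in the low libraries. Inhba, an inhibin and activin subunit, stood at 113 to 249 and 41.6 to 440. Their summed level was 5139 to 7391 FPKM in the high and 4520 to 6279 in the low libraries.

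Luteal, cholesterol and vascular genes were higher on average in the high libraries but were arranged differently, with CTX 3 lowest of the 4 in each list. Of the luteal genes, 7 of 9 had a higher mean, against 46.5% of all genes above 0, with a median of 0.61. Of the 9, 1 did not overlap, against 2.08%. As a list median relative to the low mean, they stood at -0.04 in CTX 3 and 0.70 to 1.03 in the other high libraries. The low libraries stood at -0.46 to 0.36, with Control 3 and CTX_HCQ 2 above CTX 3. Ptgfr, the receptor through which prostaglandin F acts on the corpus luteum, had 119 FPKM in CTX 1, 71.7 in Control 1, 64.8 in CTX 2 and 15.6 in CTX 3, against 40.3 in CTX_HCQ 2, 29.8 in CTX_HCQ 3, and less than CTX 3 in CTX_HCQ 1, Control 2 (8.86) and Control 3 (7.71). Hsd17b7, an enzyme of both cholesterol and oestradiol synthesis, stood at 271 in CTX 1, 197 in CTX 2, 163 in Control 1 and 67.3 in CTX 3, against 133 in CTX_HCQ 2, 59.1 in CTX_HCQ 3, 16.5 in CTX_HCQ 1, 13.3 in Control 3 and 10.7 in Control 2. In both genes CTX 3 overlapped with the low libraries.

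Cholesterol synthesis genes had a higher mean in 24 of 24, against 46.5% of all genes above 0, with a median of 0.80. Of the 24, 2 did not overlap, against 2.08%. The cholesterol list stood at 0.34 in CTX 3 and 0.74 to 1.28 in the other high libraries. Among the low libraries it stood at 0.56 in CTX_HCQ 2, above CTX 3, and at -0.26 to -0.02 in the others. Endothelial genes had a higher mean in 11 of 11, with a median of 0.86, and 0 of 11 without overlap. By library, the endothelial list stood at 1.15 in CTX 1, 0.95 in Control 1, 0.61 in CTX 2 and 0.35 in CTX 3, against 1.07 in CTX_HCQ 2 and -0.36 to -0.02 in the other low libraries. These library values are list medians of log2(FPKM + 1) relative to the low mean. CTX_HCQ 2 thus stood within the range of the high libraries in endothelial transcripts, while its Foxj1 stood at 0.262 FPKM.

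The ovulation list had a higher mean in 6 of 14 genes, 0 without overlap and a median of -0.09. Adamts1, a protease of the ovulating follicle, stood at 21.0 FPKM in Control 1, 17.2 in CTX 1, 11.5 in CTX 2 and 6.64 in CTX 3, against 203 in Control 3, 135 in Control 2, 132 in CTX_HCQ 1, 12.4 in CTX_HCQ 2 and 7.22 in CTX_HCQ 3. Its large values were in 3 of the 5 low libraries, and the groups overlapped. Edn2, a vessel-constricting peptide made at ovulation, had 0.625 to 1.29 FPKM in the high libraries, against 7.97 to 14.9 in the same 3 low libraries, 2.63 in CTX_HCQ 3 and 1.13 in CTX_HCQ 2.

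**Figure D3:**
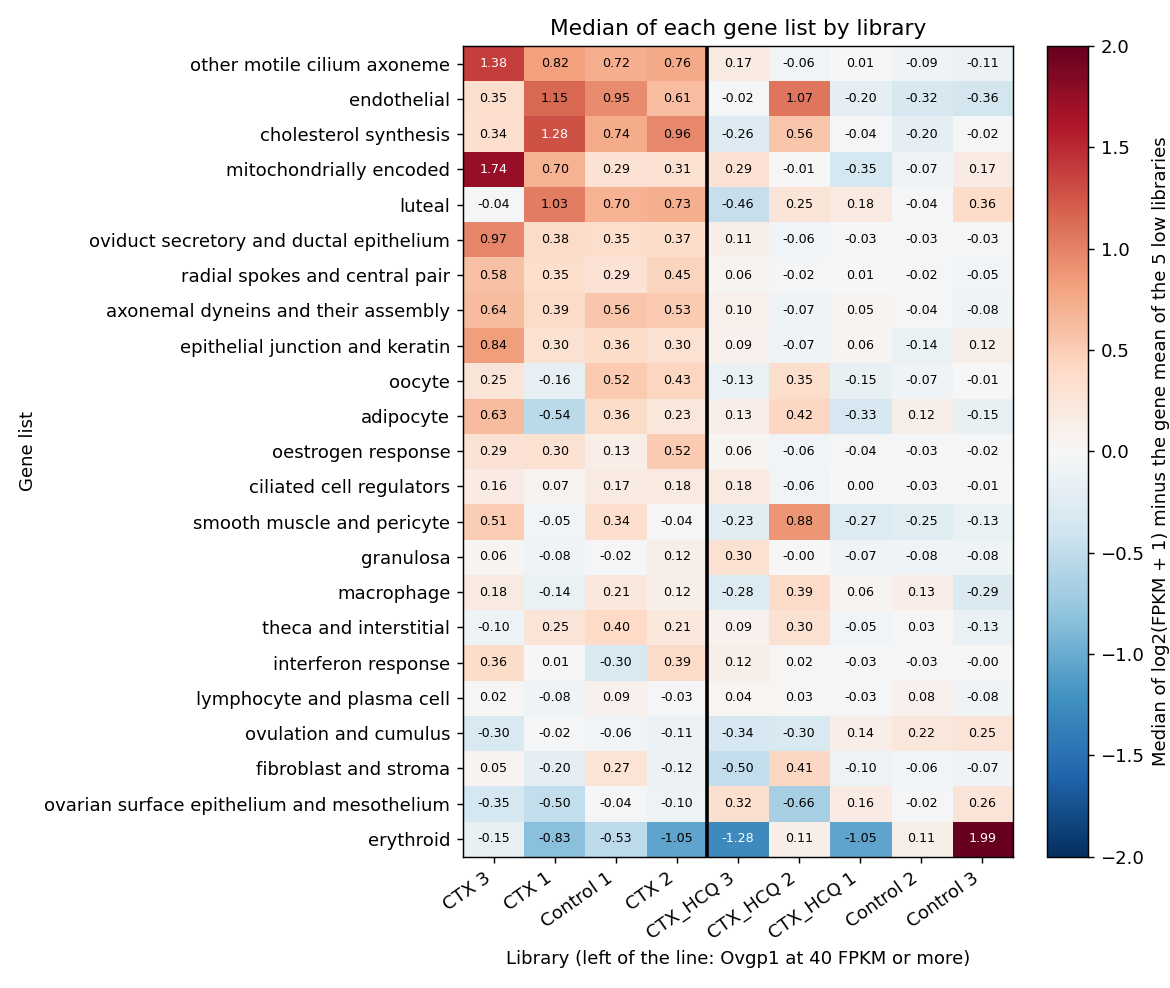
Median over each gene list (rows) of log2(FPKM + 1) relative to the gene's mean in the 5 low libraries, by library (columns), with the 4 high libraries left of the line. The axoneme list stands at 0.72 to 1.38 on the left and -0.11 to 0.17 on the right, while the endothelial list reaches 1.07 in CTX_HCQ 2 and the erythroid list 1.99 in Control 3.

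Of 13 mitochondrially encoded genes, 4 did not overlap, against 2.08% of all genes above 0. All 13 had a higher mean, against 46.5%, with a median of 0.78. Much of this lay in CTX 3, where the list stood at 1.74, against 0.29 to 0.70 in the other high libraries. The low libraries stood at -0.35 to 0.29, and CTX_HCQ 3, at 0.29, was level with Control 1. mt-Co2, a subunit of cytochrome oxidase, had 1620 FPKM in CTX 3, while the remaining high libraries lay between 373 and 460, against 113 to 271 in the low ones. Of the lists of blood, immune, stromal, muscle, fat and theca cells, 0 had a member without overlap. Their medians ran from -0.65 for erythroid genes to 0.25 for adipocyte genes. The interferon list had a median of 0.06 and the oocyte list 0.29, both with 0 members without overlap. The oestrogen response list had 4 of 12 without overlap, against 2.08% of all genes above 0, and a median of 0.24. Of its genes, Ltf, Lcn2 and Muc1 also stand in the oviduct list.

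Among the 12 named genes with the largest differences downward, the differences were smaller than those upward. Igdcc4, a receptor of the immunoglobulin family, stood at 2.98 to 4.44 FPKM against 4.68 to 12.7, a log2 difference of -1.16. Sfrp2, a secreted Wnt antagonist, stood at 0.847 to 1.70 against 1.94 to 4.62, and Dpf1, a chromatin factor best known from neurons, at 0.822 to 1.17 against 2.40 to 3.95. Wfikkn2, which binds myostatin-related ligands, stood at 0.249 to 1.05 against 1.17 to 3.12. The short noncoding genes Rnu73b, at 6.63 to 9.96 against 15.3 to 29.4, and Snord17, at 0 to 0.250 against 0.721 to 2.34, were also among the 12. The rest were Btbd16, Srcin1, BX649560.1, Trank1, Pitpnm1 and Rpl26-ps6, with log2 differences from -0.85 to -0.74.

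The split can be seen in 2 differences that share no library, both chosen by Ovgp1 and so given without a test. Within the Control group, Control 1 was above both other libraries in 102 of the 120 cilium genes, against 32.2% of all genes above 0 and 37.2% of genes tested. All CTX libraries were above all CTX_HCQ libraries in 84 of the 120, against 4.08% and 4.57%. Both held in 81 of the 120, against 2.69% and 3.26%. Most of these cilium genes thus lay higher in 1 library without cyclophosphamide, Control 1, than in Control 2 and Control 3. Most also lay higher in the 3 libraries with cyclophosphamide alone than in the CTX_HCQ libraries.

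**Figure D4:**
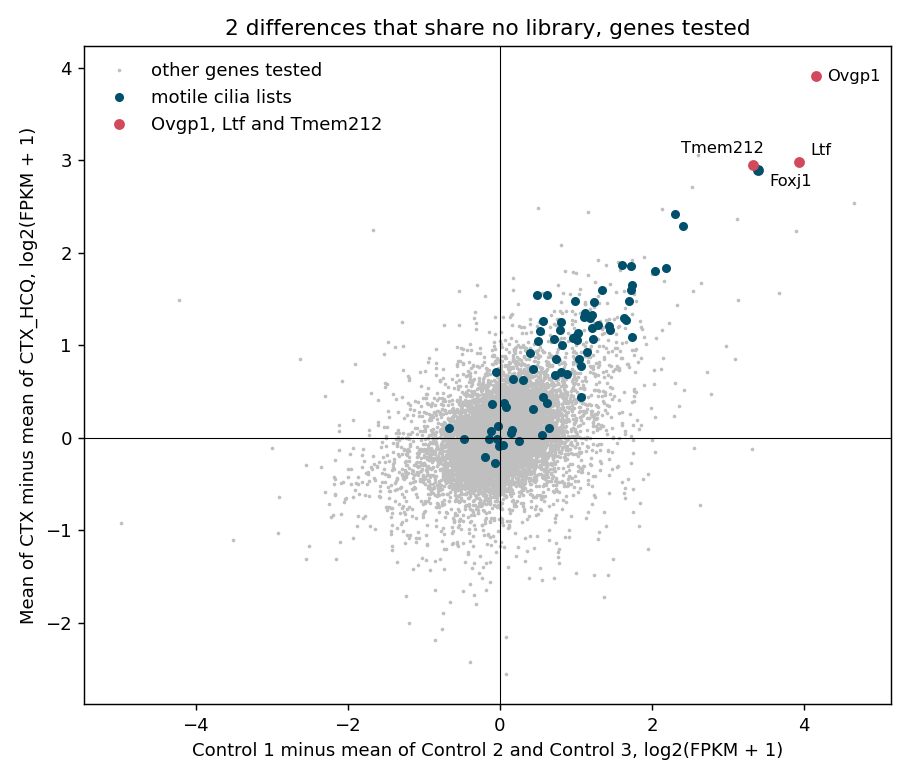
For each gene tested, the log2(FPKM + 1) of Control 1 minus the mean of Control 2 and Control 3 (horizontal) against the mean of CTX minus the mean of CTX_HCQ (vertical), with motile cilia genes in blue and Ovgp1, Ltf and Tmem212 in red. Ovgp1, Ltf, Tmem212 and Foxj1 lie at the upper right, and most cilium genes lie above 0 on both axes.

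The labelled comparisons were fitted with limma over all 14431 genes. Limma's moderated test with Benjamini-Hochberg adjustment called 0 genes in each comparison (0% of 14431), so none of the cilium genes passed. CTX against Control had 1126 genes at an unadjusted p under 0.05, CTX_HCQ against CTX had 785, and CTX_HCQ against Control had 312. With limma voom on recovered reads the calls were also 0, and the genes at an unadjusted p under 0.05 were 1080, 716 and 267. Foxj1 averaged 15.4 ± 5.60 FPKM in CTX and 4.06 ± 6.66 in Control (SD, n = 3 each), a log2 difference of 2.57 (SE 0.79, adjusted p = 0.639 by limma). The large spread in Control is that of Control 1. In CTX_HCQ Foxj1 averaged 1.25 ± 0.880, a log2 difference from CTX of -2.90 (SE 0.79, adjusted p = 0.522 by limma). Rsph1 averaged 2.08 ± 0.694 FPKM in CTX_HCQ and 7.96 ± 2.22 in CTX, and Control averaged 3.10 ± 1.07 (SD, n = 3 each). Its log2 difference was 1.13 between CTX and Control (SE 0.26, adjusted p = 0.639) and -1.54 between CTX_HCQ and CTX (SE 0.26, adjusted p = 0.394), both by limma.

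Without a filter on low values, 55 of the 120 cilium genes were higher in CTX than in Control at an unadjusted p under 0.05, against 2.96% of 32879 genes, and 0 were lower, against 2.83%. Between CTX_HCQ and CTX, 76 were lower, against 3.20% of genes, and 0 were higher, against 2.01%. Between CTX_HCQ and Control, 2 were lower, against 1.39%, and 0 were higher, against 1.43%. The contrast of CTX_HCQ with CTX lies wholly within the split, as all CTX libraries are high and all CTX_HCQ libraries low. That of CTX with Control lies within it except for Control 1, and both share the CTX libraries. The lists were also chosen with earlier results known, so nothing is read from these counts. None of these genes passed after adjustment.

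Leaving out Control 1, the Control library with high Ovgp1, changed the outcome. Limma then called 13 genes between CTX and Control (0.0901% of 14431), all higher in CTX, and 10 between CTX_HCQ and CTX (0.0693%), all lower in CTX_HCQ. All 13 were among the genes without overlap between high and low libraries, and so were 9 of the 10, against 2.49% of genes tested. Without Control 1 every CTX library is a high one and every Control library a low one, so this overlap is largely built in. The 13 were Ltf, Foxj1, Tmem212, Sec14l3, Ccdc153, Dynlrb2, Cdhr3, Ldlrad1, Nme9, Lrrc36, Gm19935, ENSMUSG00000118522, for which no symbol was matched, and Cd24a, which encodes a surface glycoprotein. Foxj1, Tmem212, Sec14l3, Ccdc153, Dynlrb2, Nme9, Ldlrad1, Gm19935 and ENSMUSG00000118522 were also among the 10. The tenth, ENSMUSG00000118589, stood at 0 in the 3 CTX_HCQ libraries, against 5.32, 3.51 and 2.73 FPKM in CTX, and at 6.65 in Control 2, so it did not follow the split.

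For Foxj1 the log2 difference between CTX and Control was then 3.71 (adjusted p = 0.0177 by limma), and between CTX_HCQ and CTX it was -2.90 (adjusted p = 0.0346 by limma). Leaving out each of the other 8 libraries in turn gave 0 calls in each comparison, and so did leaving out Control 1 together with CTX 3. That joint omission leaves fewer libraries per group. Between CTX and Control its smallest adjusted p was 0.0515, and Foxj1 kept a log2 difference of 3.45 (adjusted p = 0.0812), both by limma. The calls without Control 1 therefore rest on which libraries enter the fit. Control 1 was left out in turn like every other library, but it is also the Control library that the Ovgp1 level sets apart. The source of the transcripts in the high libraries was not tested.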

How the data were processed

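The authors deposited 1 table of gene FPKM for 9 libraries of polyadenylated RNA. The submitters' processing notes name, without roles, DESeq2 1.20.0, featureCounts 1.5.0-p3, HISAT2 2.0.5 and fastp 0.23.2, and the build GRCm39. No source used here states strandedness, so reads of overlapping genes cannot be told apart. A table of gene names matched symbols to 52073 of 56748 identifiers.

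With exon lengths from GENCODE M21, FPKM fell on whole reads within 0.02 reads for 13578 of 14431 genes tested (94.1%), which gave 13372028 to 17133872 reads per library. Replicates differed by more than sampling noise, with a chi-square per degree of freedom of 12.7 to 125. Limma 3.58.1 (R 4.3.3) was fitted to log2(FPKM + 1) of genes at 1 FPKM or more in at least 3 libraries, with all 9 libraries, a mean per group, a variance trend and a threshold of 0.05 on adjusted p. The fit was tested on simulated data. Libraries were split at 40 FPKM of Ovgp1 with no test.

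Named genes were Ovgp1, Foxj1, Rsph1, the 12 largest differences each way among genes without overlap (Gm, Rik and unnamed genes left out), and up to 4 members of each list with the largest differences, 8 for the oviduct and cilium lists. Other genes named were chosen after their values were seen. The split, members and lists were chosen with earlier results of these data known. Alternatives covered pseudocount, filters, scaling, samples in the fit, replicate block, covariate, Ovgp1 limit and libraries left out; voom, a joint omission of 2 libraries and further filters were added after seeing the data.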

Additional observations from a re-analysis of the deposited data

How the results depend on the processing

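The labelled comparisons gave 0 calls under the other pseudocount, filters, quantile scaling and fits of 2 groups, and with voom. The exceptions were the omission of Control 1, and Ovgp1 as a covariate, which gave 1 call between CTX_HCQ and Control. Over single omissions the calls ran from 0 to 13 for CTX against Control, from 0 to 10 for CTX_HCQ against CTX, and were 0 for CTX_HCQ against Control. With a replicate block the calls were 0, 0 and 0. Same-numbered libraries did not deviate together (correlations of -0.457 to 0.135), and libraries of different numbers ran from -0.291 to 0.315. Whether same-numbered libraries share more than a number cannot be told from so few libraries. Genes without overlap numbered 683 higher and 289 lower with no filter, 132 and 108 at a mean of 5 FPKM or more, and 5375 and 6249 when only the Control libraries were compared, where 1 library faces 2. Over single omissions they ran from 397 to 1166 and from 221 to 994; fewer libraries make separation easier. The cilium median, 0.64, was 1.60 with a pseudocount of 0.1, 0.10 at a mean of 5 FPKM or more, 0.99 with the filter used for testing, 0.89 for members that reached 1 FPKM in some library, and 0.55 to 0.66 over single omissions. The oviduct median, 0.54, was 1.3, 1.76 and 0.89 in the first 3 of these settings, and 0.36 to 0.64 over single omissions. At a mean of 5 FPKM or more, only Ltf and Emx2 remain in the oviduct list, from which Ovgp1 is left out. Most cilium genes also fall below that mean, so 1.76 and 0.10 do not describe the whole lists. Splitting at 50 FPKM kept both medians positive, at 0.53 and 0.60, and gave 245 genes higher and 199 lower without overlap. Depth limits the genes under 1 FPKM, some of which rest on fewer than 10 reads.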
